A study of Sus scrofa with 21 samples.

Results

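RNA left on a bare Nitinol guide wire after it had been in an artery was compared with RNA from surgically removed pig aorta (Sus scrofa). The wire is a nickel-titanium wire without the sampling brush and served as the study's negative control, and the aorta was its surgical positive control. The members were the libraries whose device label is Nitinol wire and those whose tissue label is Aorta, which gave 4 wire and 4 aorta libraries, 8 of the 21 libraries in the series. Wire 1 came from a peripheral liver artery of pig 243K and wire 4 from a peripheral kidney artery of the same pig. Wire 2 came from a peripheral kidney artery of pig 248K and wire 3 from a peripheral liver artery of that pig. All 4 aorta libraries came from pig 237053, from which no wire was taken. The labels name no strain, age, sex or treatment for these groups. The group, the pig and the vessel therefore cannot be told apart, and the libraries of 1 pig are not separate animals. The other libraries of the series, 10 from the brush device and 3 from whole blood, appear below only as context.

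Platelets have no nucleus but carry messenger RNA made by their parent megakaryocytes, and young red cells carry globin messenger RNA until they mature. The wall of the aorta is mostly smooth muscle cells set between elastic lamellae, with collagen and fibroblasts in the outer layer. Endothelial cells line its inner surface and make up a small share of its cells.

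Library depth and complexity differed between the groups. The deposited estimated counts summed to between 1946284 and 11128399 per wire library and to between 1603209 and 3033013 per aorta library. At an equal depth of 1000000 counts the wires held 14955, 9394, 8891 and 17644 genes (wires 1 to 4), and the aorta libraries held between 18594 and 18960. The means were 12721 ± 4281 and 18845 ± 169 genes (SD, n = 4 each; exact two-sided permutation test, p = 0.0286, the smallest value 4 against 4 can give), and the p rose to 0.0571 when any 1 aorta library was left out. Wires 2 and 3, both of pig 248K, stood apart with the fewest genes, and wire 3 also had the lowest scaling factor between libraries, 0.386, where the others lay between 0.901 and 1.59. Across the genes tested the aorta libraries correlated with each other at Spearman rho 0.809 to 0.882, the wires with each other at 0.446 to 0.689, and wires with aorta at 0.339 to 0.719. In a correlation across genes the genes are not independent replicates. Levels here are CPM, a gene's count for each 1000000 counts of its library, after scaling between the 8 libraries by TMM, a trimmed mean of ratios.

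**Figure D1:**
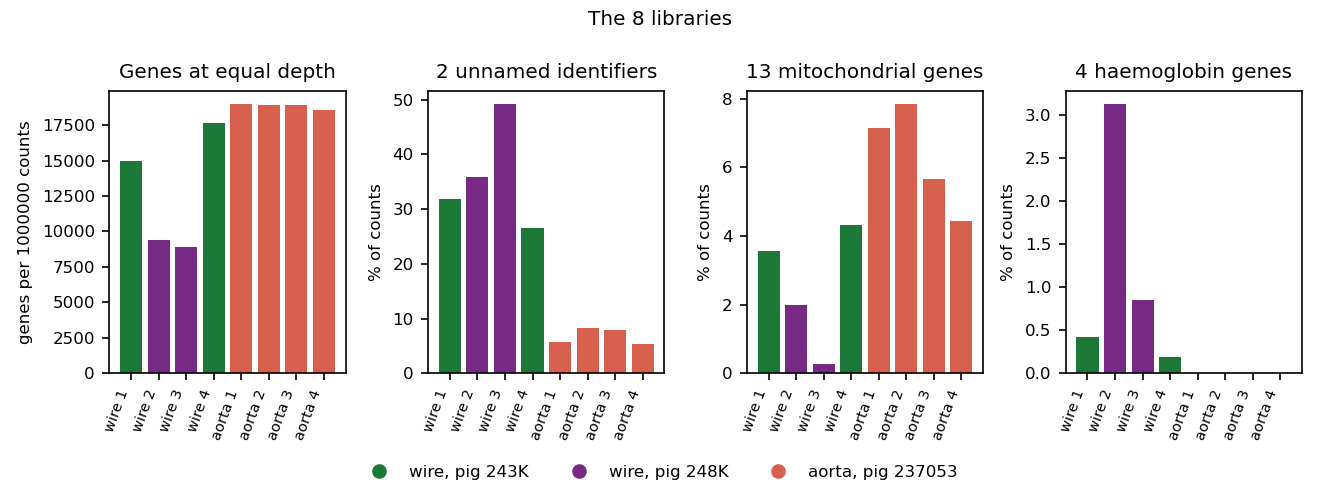
Bars give, for each of the 8 libraries, the number of genes at an equal depth of 1000000 counts and the percent of counts in 2 identifiers without a name, in 13 mitochondrially encoded genes and in 4 haemoglobin genes, coloured by pig. Wires 2 and 3 held 9394 and 8891 genes, the 2 unnamed identifiers took 26.6% to 49.2% of wire counts against 5.34% to 8.34% of aorta counts, and the haemoglobin bars of the aorta libraries lie too near 0 to be seen.

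Of 15313 genes tested with edgeR's quasi-likelihood test at a Benjamini-Hochberg adjusted p under 0.05, 546 differed. Of the genes tested, 429 (2.8%) were higher on the wires and 0.764% were lower. The wires lay above all aorta libraries in 1017 genes (6.64%) and below all of them in 1801 genes (11.8%). The median log2 fold change over all genes, wire minus aorta, was -0.29. It was -0.54 with DESeq2's scaling (RLE), under which 343 genes were higher and 130 lower, and with DESeq2's own test 614 were higher and 502 lower. These counts depended on single libraries. Without aorta 1, 2, 3 or 4 the higher genes numbered 54, 42, 162 and 181 and the lower genes 22, 20, 41 and 30, and without wire 4 the lower genes numbered 1019. The wires of pig 243K against aorta, that is without wires 2 and 3, gave 851 higher genes (5.11%) and 560 lower (3.36%) of 16663 tested. The wires of pig 248K against aorta gave 1155 higher (6.99%) and 5384 lower (32.6%) of 16523 tested. Of the higher and lower genes above, 97.9% and 99.1% were also called with pig 243K alone and 99.5% and 97.4% with pig 248K alone. These fits reuse the wires and aorta libraries that gave the calls, so they are not a separate test in each pig. With counts summed per pig, which leaves 1 aorta sample against 2 wire samples, 2 genes were higher and 6 lower.

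The 10 largest rises among named genes included 2 of the listed platelet genes, TUBB1 and F13A1. TUBB1, the beta-tubulin of megakaryocytes and platelets (chromosome 17, 59161420 to 59168385 in the RefSeq annotation of Sscrofa11.1), measured 1195, 1578, 7764 and 1100 CPM on wires 1 to 4 and 24.5, 25.9, 19.98 and 8.85 CPM in aorta 1 to 4. Every wire lay far above every aorta library, and wire 3 stood above the other wires, with 2987 CPM where no scaling between libraries was applied. On the log2 scale the wires were higher by 7.19 (SE 0.95, adjusted p = 0.0052), about 146-fold. In bulk RNA more cells of a type and more RNA per cell cannot be told apart, here and in all that follows. PPBP, the precursor of a platelet granule chemokine (chromosome 8, 70021468 to 70022490), measured 470, 97.6, 1728 and 347 CPM on the wires and 8.37, 13.5, 14.4 and 11.7 CPM in the aorta libraries. Wire 2 had the lowest wire level, and the groups did not overlap. Its log2 fold change was 5.78 (SE 0.89, adjusted p = 0.0073), and the adjusted p rose to 0.057 without aorta 1 and 0.055 without aorta 2.

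**Figure D2:**
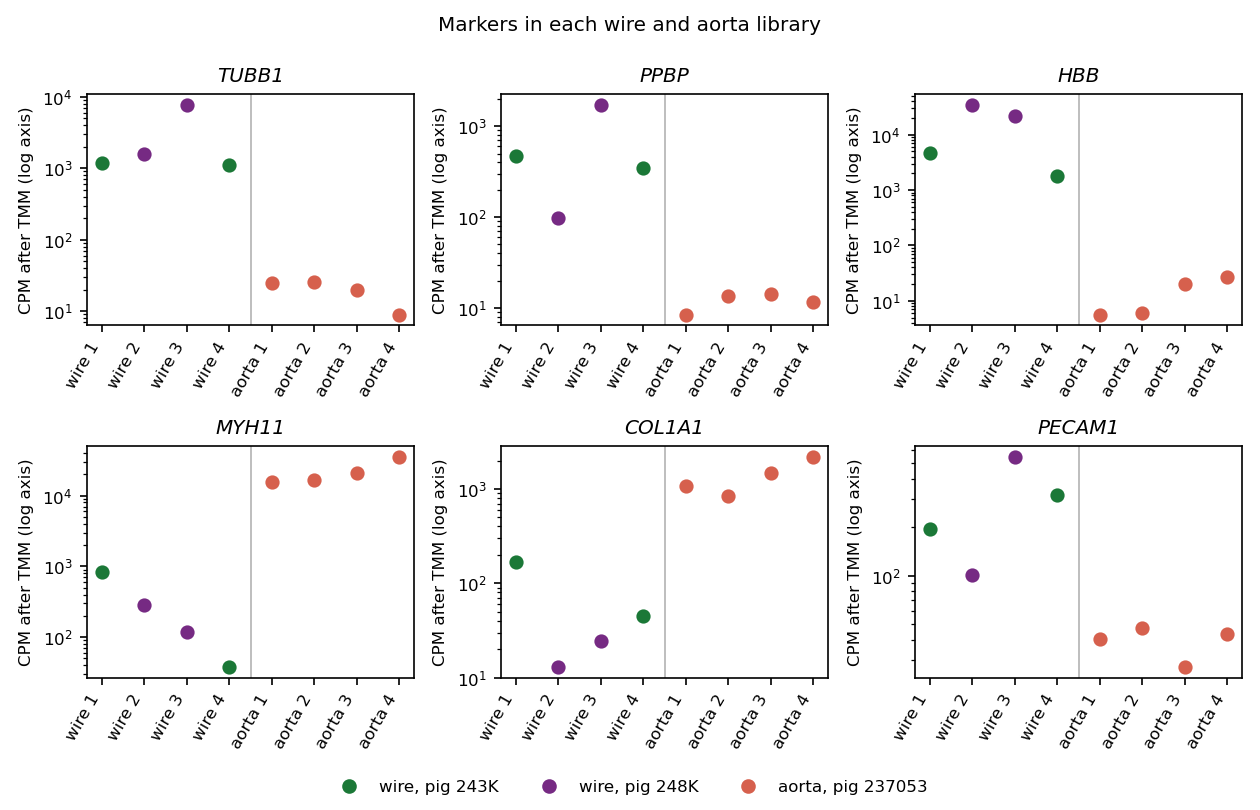
Each point is the level of a gene in 1 library in CPM after TMM scaling, on a log axis, for TUBB1, PPBP, HBB, MYH11, COL1A1 and PECAM1, coloured by pig. TUBB1, PPBP, HBB and PECAM1 were higher on each wire than in each aorta library, and MYH11 and COL1A1 were lower.

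Genes of platelet granule proteins, which platelets release when activated, followed: 10 of 11 listed genes were in the table and tested, 5 were higher on the wires and none lower, against 2.8% and 0.764% of all genes. Their median log2 fold change was 4.41. F13A1, the catalytic chain of clotting factor XIII, measured 1931, 2164, 12331 and 1790 CPM on the wires and 12.5 to 28.2 CPM in the aorta libraries. Again wire 3 was highest, and the groups were far apart. The log2 fold change of F13A1 was 7.85 (SE 0.98, adjusted p = 0.0052). THBS1, the adhesive glycoprotein thrombospondin 1, measured 1247, 1147, 4306 and 908 CPM on the wires against 19.1 to 29.4 CPM (log2 fold change 6.27, SE 0.74, adjusted p = 0.0052). The other 2 were F5, clotting factor V (4.41, SE 0.71, adjusted p = 0.0090), and SELP, the adhesion receptor P-selectin, which endothelial cells also store (4.51, SE 0.93, adjusted p = 0.023). The 5 members that did not pass ranged from 4.40 for SRGN, a proteoglycan of granules, to -1.88 for SERPINE2, a protease inhibitor. PF4 was not in the table under that symbol. The count of higher members lay between 2 and 6 when 1 library was left out, with 2 without aorta 1 or aorta 2. It was 6 with either pig's wires alone, where the backgrounds were 5.11% and 6.99%.

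Among platelet surface receptors, 11 of 16 listed genes were tested, 3 were higher on the wires and none lower, against 2.8% and 0.764% of all genes, and the median log2 fold change was 2.01. ITGB3, the beta chain of the fibrinogen receptor, measured 511, 202, 2198 and 369 CPM on the wires and 15.2 to 20.9 CPM in aorta (log2 fold change 5.42, SE 0.84, adjusted p = 0.0073). TREML1, a receptor of platelet granules, was 5.65 (SE 0.86, adjusted p = 0.0073) and GP1BB, a chain of the von Willebrand factor receptor, was 5.64 (SE 1.01, adjusted p = 0.0125). No wire overlapped an aorta library for any of these genes. GP6, the collagen receptor, and GP9, a partner of GP1BB, had log2 fold changes of 3.55 (adjusted p = 0.0913) and 2.62 (adjusted p = 0.0791) and did not pass. P2RY12, an ADP receptor, had no count on wire 2 and overlapped between groups (2.01, adjusted p = 0.722). ITGA2B, GP1BA and P2RY1 were not in the table under those symbols. Without aorta 1 the list had 1 higher member, and without aorta 2 it had none.

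Of 15 listed genes for cytoskeletal and signalling proteins of platelets 11 were tested, 8 were higher and none lower, against 2.8% and 0.764% of all genes. Their median log2 fold change was 4.17. In 10 of the 11 the wires lay above every aorta library, against 6.64% of all genes. RGS18, a regulator of G-protein signalling, measured 624, 163, 2046 and 484 CPM on the wires and 7.24 to 13.9 CPM in aorta (log2 fold change 6.32, SE 0.86, adjusted p = 0.0052). FERMT3, the integrin activator kindlin-3, measured 387, 675, 1964 and 331 CPM against 14.7 to 22.1 CPM (5.45, SE 0.74, adjusted p = 0.0052). PLEK, pleckstrin, was 4.99 (SE 0.73, adjusted p = 0.0064). FERMT3, PLEK, FYB1 and PRKCB are also made by leukocytes. The sums over the list were 3732, 3575, 17637 and 3453 CPM on the wires and 238 to 298 CPM in aorta. PTGS1, cyclooxygenase 1, overlapped between groups, with 34.9, 0, 19.4 and 46.1 CPM on the wires and 26.0 to 36.0 CPM in aorta (-0.29, adjusted p = 0.970). With either pig's wires alone 10 of 12 members tested were higher, where the backgrounds were 5.11% for pig 243K and 6.99% for pig 248K. With 1 library left out between 4 and 9 members were higher. The lowest was without aorta 1 or aorta 2.

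Of 8 transcription factors of the megakaryocyte lineage tested 1 was higher and none lower, against 2.8% and 0.764% of all genes. Their median was 2.46, with all 8 log2 fold changes above 0. FLI1, an ETS factor also made by endothelial cells and leukocytes, measured 23.8, 123, 76.4 and 35.2 CPM on the wires and 6.20 to 13.0 CPM in aorta (2.87, SE 0.68, adjusted p = 0.0425). FLI1 fell outside the threshold when any aorta library, wire 2 or wire 3 was left out, and also with RLE scaling. GATA1, the shared erythroid and megakaryocyte factor, measured 2.72, 21.5, 72.4 and 11.4 CPM against 0.402 to 3.25 CPM (4.02, adjusted p = 0.138). It was low on wire 1 and did not pass.

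**Figure D3:**
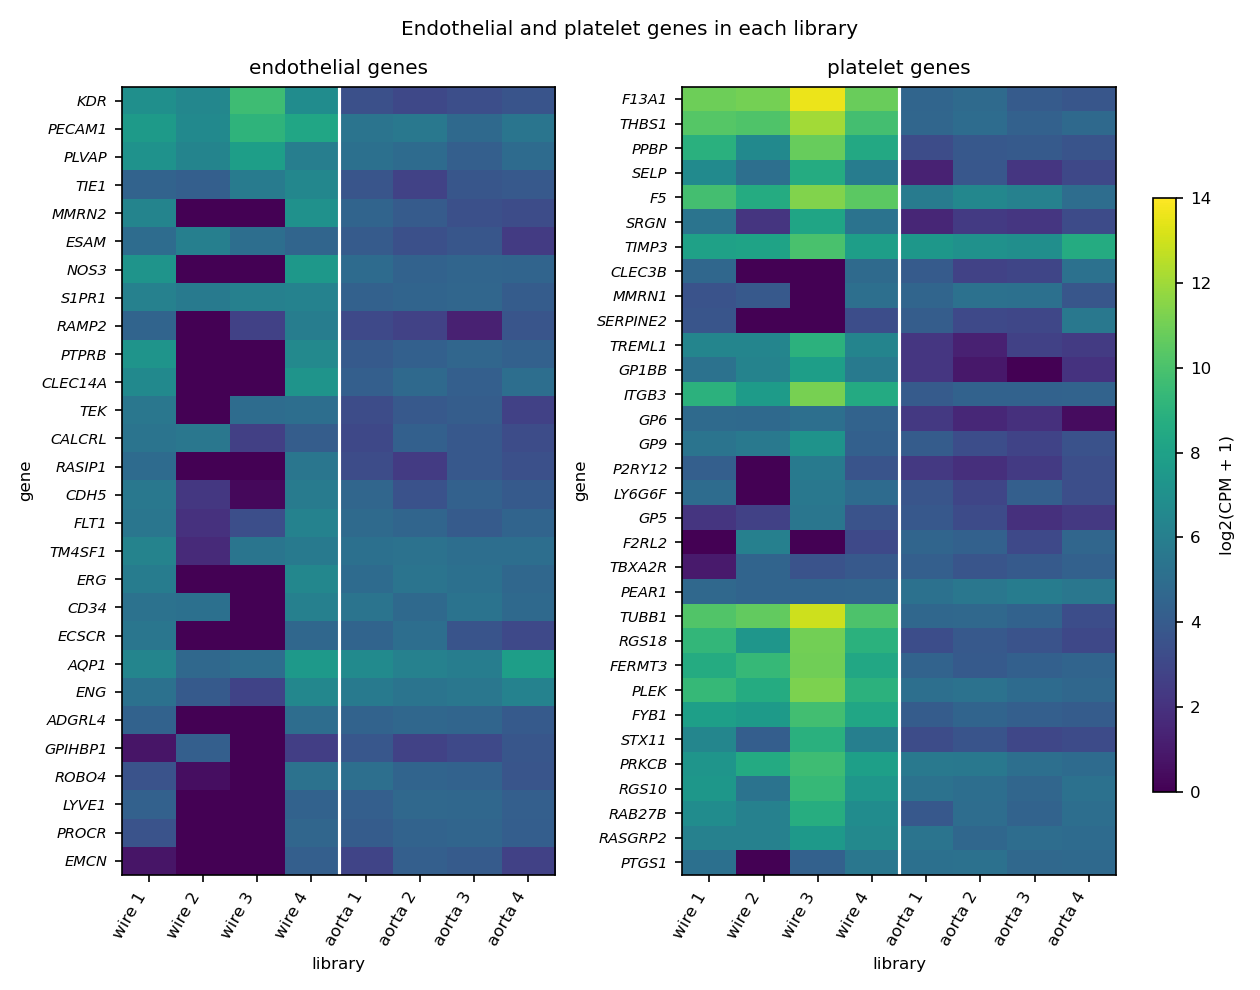
Colour gives log2(CPM + 1) of each tested endothelial (left) and platelet (right) gene in the 8 libraries, wires left of the white line. Most platelet genes with a high level were bright on all 4 wires, while 13 and 14 of the 28 endothelial genes had no count on wires 2 and 3. Over all 24358 genes in the table, wires 2 and 3 held a count in 9714 and 10165, and wires 1 and 4 in 15702 and 18304. That total includes genes not tested, and the share without a count among the 15313 tested was not computed. Whether endothelial genes lacked counts more often than tested genes in general was therefore not tested.

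Red cell genes differed most in haemoglobin. HBB, the beta chain of haemoglobin (chromosome 9, 4800683 to 4801941), measured 4550, 34645, 21713 and 1766 CPM on the wires and 5.58, 6.10, 19.98 and 26.6 CPM in aorta. All wires lay above all aorta libraries. Wires 2 and 3 of pig 248K measured more than wires 1 and 4, a difference between pigs of 3.15 on the log2 scale that did not pass (SE 0.99, adjusted p = 0.0522). Between wire and aorta HBB differed by 10.08 on that scale (SE 1.34, adjusted p = 0.0052). Globin genes are a family of similar copies, and how reads shared between copies were split is not given in the sources used here. The 4 haemoglobin genes named in the table took from 0.190% (wire 4, Wilson 95% interval 0.184% to 0.197%) to 3.13% (wire 2, 3.10% to 3.15%) of the counts of a wire. In aorta their share ran from 0.000852% (aorta 1, 0.000551% to 0.00132%) to 0.00298% (aorta 4, 0.00238% to 0.00374%). These intervals cover counting error only. The genes HBZ and HBQ1, embryonic and theta globin, had no count on any wire, and HBA1 and HBA2 were not in the table under those symbols.

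Of 20 listed genes of haemoglobin and haem synthesis, 13 were tested, 5 were higher on the wires and none lower. The shares over all genes were 2.8% and 0.764%, and the list median was 2.12. ALAS2, which catalyses the initial step of haem synthesis in red cells, measured 284, 1092, 1091 and 90.8 CPM on the wires and 1.47 to 4.65 CPM in aorta. The groups were far apart, and the wires of pig 248K were higher than those of pig 243K (log2 difference 2.53, SE 0.72, adjusted p = 0.0359). Its log2 fold change was 7.90 (SE 0.99, adjusted p = 0.0052). HBM, mu globin, measured 102.96, 252, 544 and 73.9 CPM on the wires and 0 to 2.41 CPM in aorta (8.41, SE 1.22, adjusted p = 0.0060). The other higher members were SLC25A39, a mitochondrial carrier (3.89, SE 0.89, adjusted p = 0.0364), and UROS, uroporphyrinogen synthase (2.49, SE 0.45, adjusted p = 0.0118). The enzymes PPOX, CPOX and UROD, which nucleated cells in general use, lay between -0.75 and 0.46 and did not pass. With 1 library left out, 3 to 5 members were higher, with 3 without aorta 1, 2 or 4.

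Red cell membrane proteins and enzymes were less uniform, with 2 of 19 tested higher and none lower, against 2.8% and 0.764% of all genes. Their median was 0.75. BNIP3L, which clears mitochondria from maturing red cells and is made in many tissues, measured 1426, 861, 7315 and 1078 CPM on the wires and 13.0 to 27.8 CPM in aorta (7.15, SE 0.96, adjusted p = 0.0052). EPB41, protein 4.1, measured 636, 1877, 2925 and 510 CPM against 42.3 to 81.3 CPM (4.73, SE 0.73, adjusted p = 0.0073). Neither gene overlapped between groups. Without aorta 1 or aorta 2 EPB41 was not called. The defining membrane gene SLC4A1, the band 3 anion exchanger, measured 29.5, 169, 20.3 and 16.9 CPM against 14.5 to 25.1 CPM, with wire 1 just above the aorta range and wire 2 well above it (1.48, adjusted p = 0.525). The spectrin gene SPTB had no count on wire 1.

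Leukocyte genes differed in a few members, and their lists are read against 2.8% of all genes higher and 0.764% lower. PTPRC, the common leukocyte antigen CD45, measured 399, 487, 1355 and 436 CPM on the wires and 35.1, 64.8, 43.2 and 47.5 CPM in aorta. The groups did not overlap, and wires exceeded aorta by 3.81 on the log2 scale (SE 0.59, adjusted p = 0.0073). Its call was lost without aorta 1 or aorta 2. Of 16 neutrophil genes tested 2 were higher: CSF3R, the receptor for the neutrophil growth factor G-CSF, measured 37.9, 133, 375 and 104.7 CPM against 1.55 to 9.29 CPM (5.45, SE 0.90, adjusted p = 0.0092). NCF1, a subunit of the phagocyte oxidase, was 5.16 (SE 0.98, adjusted p = 0.0163). No neutrophil gene was higher without aorta 1 or aorta 2. Among 15 monocyte and macrophage genes 1 was higher, FCER1G, a signalling chain that platelets share with myeloid cells. It measured 264, 75.7, 1222 and 217 CPM against 4.63 to 6.84 CPM (6.27, SE 0.91, adjusted p = 0.0062), and its call was lost without aorta 2. The macrophage genes C1QA, C1QB and MARCO had no count on wires 2 and 3. None of 20 T and NK cell genes and none of 11 B cell genes passed in either direction, with medians of 0.33 and 1.02. At an unadjusted p under 0.05 in edgeR, 4 and 2 of them were higher and none lower. DESeq2 called 2 T and NK cell genes higher, and limma's voom called none in either list.

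Of 30 listed interferon response genes 25 were tested, 7 were higher and none was lower, against 2.8% and 0.764% of all genes. Their median was 1.84, against -0.29 over all genes. IFIT1, an antiviral RNA-binding protein, measured 454, 499, 1532 and 363 CPM on the wires and 23.0 to 36.8 CPM in aorta. OAS2, an activator of RNase L, measured 374, 475, 494 and 350 CPM against 60.6 to 79.5 CPM, the wires here being close to one another. Their log2 fold changes were 4.42 (SE 0.63, adjusted p = 0.0059) and 2.66 (SE 0.43, adjusted p = 0.0082). The others were RSAD2 (2.81, SE 0.46), HERC5 (2.77, SE 0.48), ISG15 (3.49, SE 0.58), IFIT2 (3.83, SE 0.62) and IRF7 (5.01, SE 0.98). The wires lay above aorta in 12 of the 25, against 6.64% of all genes. The medians were 1.81 and 1.80 with the wires of pig 243K and of pig 248K alone, where 17 and 10 members were higher against backgrounds of 5.11% and 6.99%. Without aorta 1 or aorta 2 none of the 25 passed, and without wire 2 as many as 13 did. Interferon genes are made by leukocytes and by vessel cells, and the part of either in this difference was not tested.

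Smooth muscle genes were lower on the wires. MYH11, the myosin heavy chain of smooth muscle (chromosome 3, 7002667 to 7143093), measured 837, 288, 117.3 and 37.7 CPM on the wires and 15762, 16388, 21215 and 35370 CPM in aorta. Wire 1 was the highest wire and still lay far below the lowest aorta library. This was a log2 fold change of -6.12 (SE 1.05, adjusted p = 0.0104), with an adjusted p of 0.0501 without aorta 2. ACTA2, smooth muscle actin, measured 128, 19.3, 82.7 and 26.8 CPM on the wires and 1426, 1423, 1283 and 3986 CPM in aorta (-4.98, SE 0.82, adjusted p = 0.0092). LMOD1, an actin nucleator of smooth muscle, measured 38.6, 29.7, 2.34 and 37.2 CPM against 1512, 1784, 3654 and 2750 CPM (-6.49, SE 0.93, adjusted p = 0.0058). Neither overlapped between groups.

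All 23 smooth muscle genes in the table were tested, 10 were lower and none was higher, against 0.764% and 2.8% of all genes. The median was -3.43. The wires lay below all aorta libraries in 16 of the 23, against 11.8% of all genes. The calls also included RGS5, ITGA8, SYNPO2, TPM2, SMTN and CSRP1, between -5.71 and -3.11. With pig 243K and pig 248K alone 16 members were lower each time, against backgrounds of 3.36% and 32.6%. With 1 library left out 3 to 11 were lower, with 3 without aorta 2 and 4 without aorta 1. A few members with a contractile role did not follow. MYL9, a myosin light chain that platelets also use, measured 1962, 1928, 7791 and 1371 CPM on the wires and 504, 367, 515 and 1101 CPM in aorta (2.39, SE 0.71, adjusted p = 0.111). It was the single member with all wires above aorta. CALD1, caldesmon, measured 2375, 1753, 13886 and 3539 CPM against 4134 to 9018 CPM, and TPM1, tropomyosin 1, 139, 138, 1248 and 237 CPM against 395 to 1073 CPM. Both overlapped between groups through wire 3, with log2 fold changes of -0.25 (adjusted p = 0.964) and -0.42 (adjusted p = 0.934). TAGLN, transgelin, was -1.53 (adjusted p = 0.369).

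Several collagen genes were lower. COL1A1, the main chain of fibrillar type I collagen (chromosome 12, 26379087 to 26397180), measured 170, 12.9, 24.3 and 44.7 CPM on the wires and 1083, 844, 1470 and 2193 CPM in aorta. The wires all lay below aorta, wire 1 nearest to it. This gave a log2 fold change of -4.47 (SE 0.87, adjusted p = 0.0175), and the adjusted p was 0.0599, 0.0568 and 0.0514 without aorta 1, 2 or 4. Of the 18 collagen genes tested 4 were lower and none higher, against 0.764% and 2.8% of all genes, with a median of -3.22. In 14 of the 18 the wires lay below aorta, against 11.8% of all genes. With 1 library left out between 1 and 6 were lower, with 1 without aorta 1, 2 or 4. COL6A1, a chain of the microfibrillar type VI collagen, measured 31.2, 21.1, 3.74 and 12.4 CPM against 418 to 958 CPM (-5.36, SE 0.74, adjusted p = 0.0052). COL3A1 was -4.82 (SE 1.03, adjusted p = 0.0282) and COL5A1 -3.64 (SE 0.82, adjusted p = 0.0345), and both calls were lost without wire 2 or any aorta library. The 18 genes summed to 2161, 216, 69.4 and 1629 CPM on the wires, so that the wires of pig 243K held more collagen RNA than those of pig 248K. In aorta the sum was 6031 to 13532 CPM. COL14A1, a collagen of fibril surfaces, reached 583 and 272 CPM on wires 1 and 4, 16.3 and 0.934 CPM on wires 2 and 3, and 187 to 501 CPM in aorta (-0.35, adjusted p = 0.969).

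Elastic fibre genes overlapped more between groups than collagen genes. Still, in 11 of 19 the wires lay below all aorta libraries, against 11.8% of all genes. Of 19 tested 2 were lower and none higher, against 0.764% and 2.8% of all genes, with a median of -2.35. EMILIN1, a glycoprotein of elastic fibres, measured 9.41, 4.30, 1.40 and 12.9 CPM on the wires and 112.07 to 192 CPM in aorta (-4.42, SE 0.68, adjusted p = 0.0073). MFAP4, a microfibril protein, was -4.96 (SE 1.12, adjusted p = 0.0349), a call lost without any aorta library and without wire 3 or wire 4. ELN, elastin itself, measured 1466, 0, 22.7 and 843 CPM on the wires and 739, 519, 898 and 1687 CPM in aorta. Wires 1 and 4 of pig 243K lay inside the aorta range and wires 2 and 3 of pig 248K far below it, and the 4 wires did not pass as a group (-0.72, adjusted p = 0.939). Fibronectin, FN1, showed the same arrangement, with 1795, 1.29, 37.8 and 1155 CPM on the wires and 760 to 2591 CPM in aorta (-0.82, adjusted p = 0.922). With pig 243K alone 6 elastic fibre genes were lower and 1 higher, and with pig 248K alone 13 were lower and none higher, where 3.36% and 32.6% of all genes were lower. Of 24 genes for proteoglycans, other matrix and fibroblasts 1 was lower, THBS2, thrombospondin 2, with 18.8, 8.17, 5.14 and 8.93 CPM against 87.7 to 208 CPM (-3.66, SE 0.56, adjusted p = 0.0073).

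Endothelial genes did not move as a block. Of 38 listed, 28 were tested, 3 were higher on the wires and none was lower, against 2.8% and 0.764% of all genes. The median was 0.83. KDR, the main receptor for the growth factor VEGF, measured 124, 87.7, 795 and 110 CPM on the wires and 9.62, 7.15, 9.29 and 11.7 CPM in aorta. All wires lay above aorta, with wire 3 highest. The wires were higher by 4.89 on the log2 scale (SE 0.82, adjusted p = 0.0098), and the call was lost without aorta 1 or aorta 2. PECAM1, by which endothelial cells hold to each other and which platelets and leukocytes also carry, measured 196, 100.6, 547 and 316 CPM on the wires and 40.3, 47.3, 27.0 and 43.1 CPM in aorta. Again the groups did not overlap (2.88, SE 0.57, adjusted p = 0.0200), but the adjusted p lay between 0.0707 and 0.120 when any 1 aorta library was left out. PLVAP, a protein of endothelial diaphragms, was 2.23 (SE 0.52, adjusted p = 0.0409), and its call was lost without any aorta library, wire 1 or wire 3.

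Several other endothelial genes separated the wires by pig, while KDR, PECAM1 and PLVAP did not pass between the pigs (adjusted p = 0.158, 0.819 and 0.591 in edgeR). Wires 2 and 3 also held the fewest genes at equal depth, 9394 and 8891, and the part of that here was not tested. CDH5, the cadherin of endothelial junctions, measured 47.8 and 56.1 CPM on wires 1 and 4 and 3.87 and 0.234 CPM on wires 2 and 3, with 10.7 to 23.6 CPM in aorta. Over all 4 wires it did not pass (0.65, adjusted p = 0.934). NOS3, endothelial nitric oxide synthase, measured 150 and 174 CPM on wires 1 and 4, had no count on wires 2 and 3, and measured 19.8 to 28.5 CPM in aorta. CLEC14A, PTPRB, MMRN2, ERG, RASIP1 and ECSCR likewise had no count on wires 2 and 3. On the wires of pig 243K alone 14 of 28 endothelial genes were higher than in aorta and none lower, with a median of 1.32 and a background of 5.11%. On the wires of pig 248K alone 5 were higher and 13 lower, with a median of -2.26 and backgrounds of 6.99% and 32.6%. VWF, CLDN5, EGFL7 and THBD were not in the table under those symbols. Platelet lists did not show this split: the granule genes had medians of 3.34 and 4.81, and the cytoskeletal genes 2.66 and 4.33, for the pigs 243K and 248K.

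**Figure D4:**
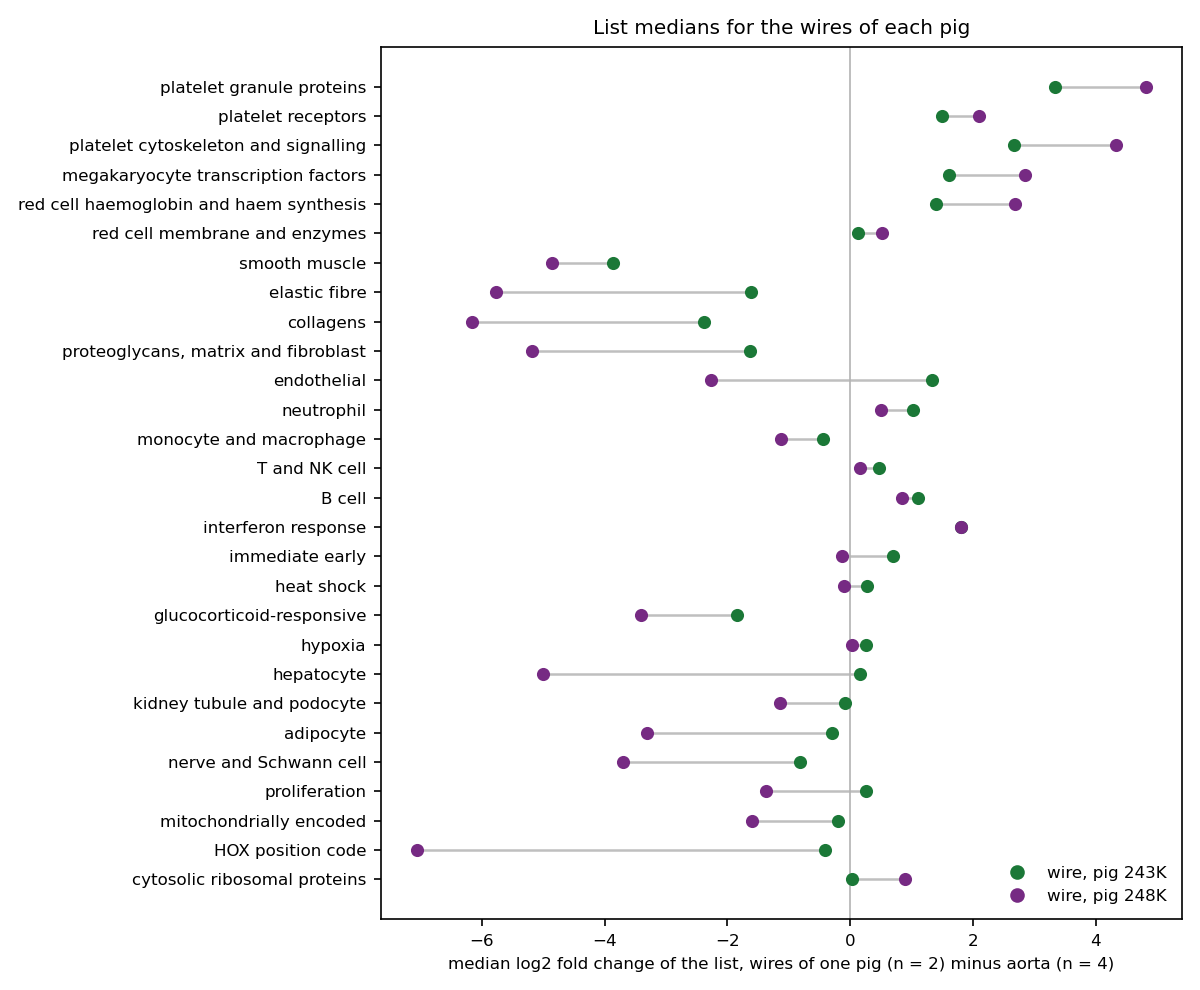
Points give the median log2 fold change of each gene list for the wires of pig 243K and of pig 248K, each as 2 libraries against the same 4 aorta libraries. Platelet lists lay above 0 and smooth muscle and collagen lists below 0 for both pigs, while the endothelial median was 1.32 for pig 243K and -2.26 for pig 248K.

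The wires of the pigs were also compared directly in a fit that shared its spread with the aorta libraries. Of 16938 genes tested, 0.644% were higher on the wires of pig 248K and 3714 (21.9%) were lower, with a median of -0.98 over all genes. Without wire 2 or wire 3 the higher genes numbered 1399 and 1148 and the lower genes 6852 and 6304. Without wire 4 the higher genes numbered 219, and without wire 1 or aorta 1, 2 or 3 between 21 and 31. With limma's voom and quality weights none was higher and 3 were lower. With the organ of the artery as a block, which pairs the pigs' liver wires and their kidney wires, 267 were higher and 4718 lower. Lower in pig 248K were 15 of 28 endothelial, 12 of 19 elastic fibre, 13 of 18 collagen and 11 of 24 proteoglycan and fibroblast genes, against 4 of 23 smooth muscle genes. Of the platelet granule genes CLEC3B and SERPINE2 were lower, both without a count in pig 248K. None of 13 platelet receptor, 12 platelet cytoskeletal and 8 megakaryocyte genes passed in either direction. At an unadjusted p under 0.05 in edgeR, 0, 3 and 3 of them were higher in pig 248K and none lower. Haemoglobin and haem genes had 3 of 14 higher in pig 248K, ALAS2, SLC25A39 and FECH. FECH, which inserts iron into haem, measured 175 and 146 CPM on the wires of pig 248K and 16.9 and 28.9 CPM on those of pig 243K (2.81, SE 0.63, adjusted p = 0.0129). ARG1, an arginase of hepatocytes and neutrophils, measured 89.1 and 123 CPM against 8.10 and 10.9 CPM (3.48, SE 0.69, adjusted p = 0.0079). TENT5C, a poly(A) polymerase, measured 2505 and 656 CPM against 143 and 95.02 CPM (3.73, SE 0.76, adjusted p = 0.0094). Among the genes lower in pig 248K, NOS3 and PLEKHA7, an adherens junction protein, had no count in that pig and between 92.5 and 174 CPM in pig 243K (adjusted p = 0.0059 for both). The gene count at equal depth was lower in pig 248K as well, and its part in these differences was not tested.

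**Figure D5:**
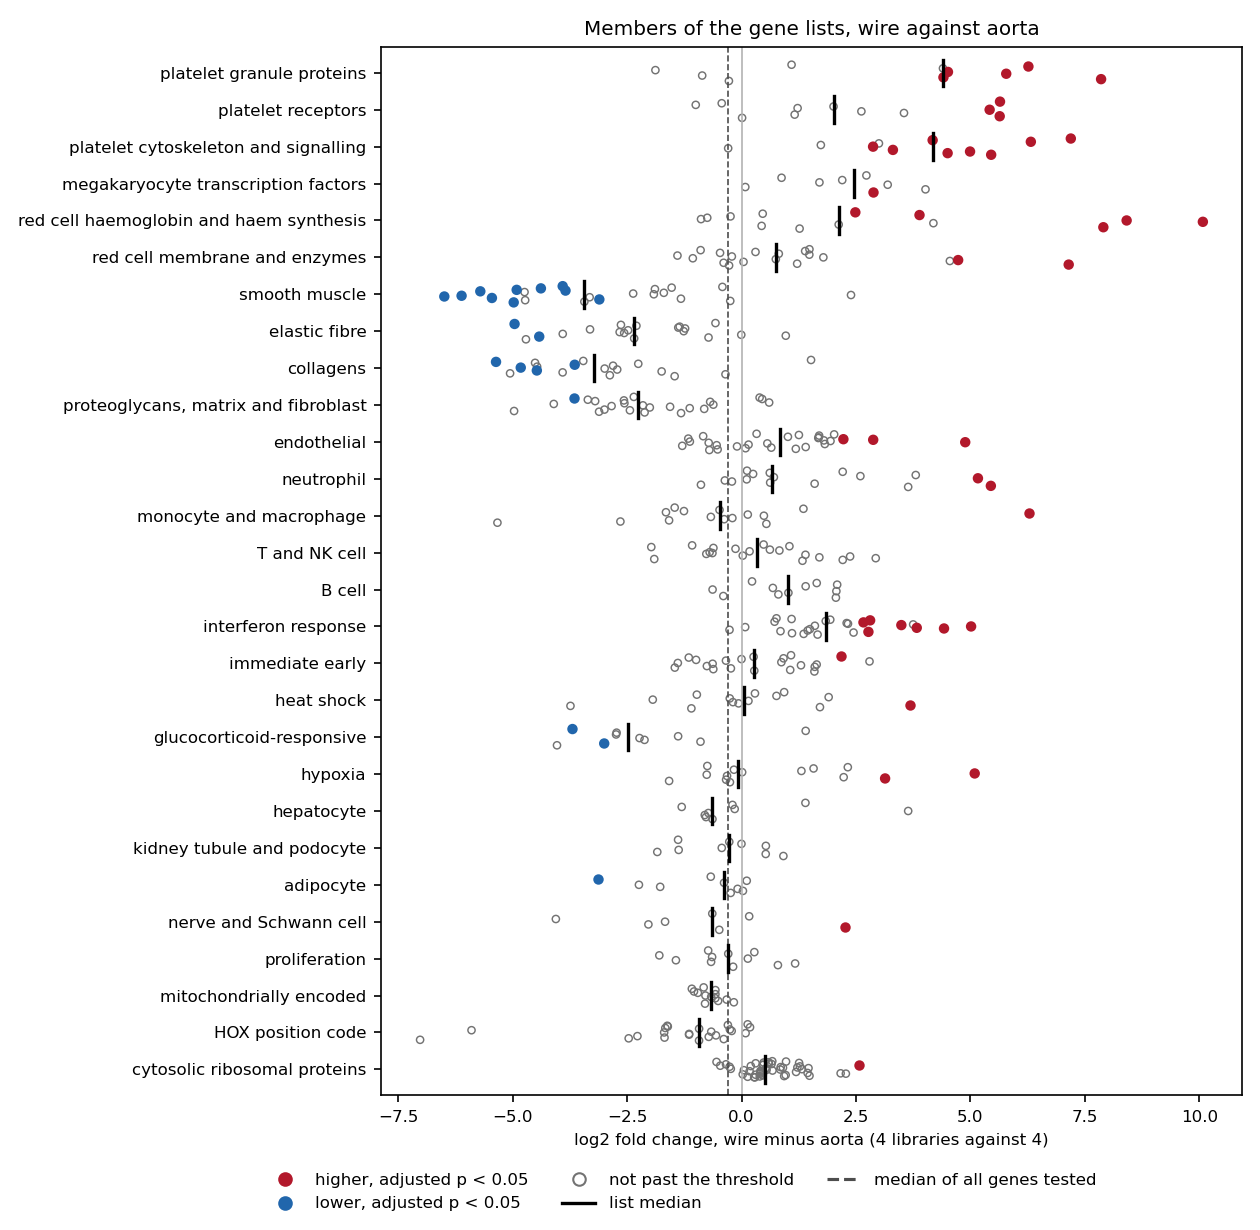
Each point is a tested gene placed at its log2 fold change, wire minus aorta, with 1 line for each of the 28 gene lists, bars at list medians and a dashed line at the median of all genes tested, -0.29. Platelet lists have medians of 2.01 to 4.41, smooth muscle and collagens of -3.43 and -3.22, and elastic fibre and glucocorticoid-responsive genes of -2.35 and -2.48.

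Lists of stress and stimulus responses are read against 2.8% of all genes higher and 0.764% lower. Of 22 immediate early genes 1 was higher, SOCS3, a feedback inhibitor of cytokine signalling, with 60.1, 97.6, 150 and 86.3 CPM against 9.76 to 32.2 CPM (2.17, SE 0.53, adjusted p = 0.0478). The call of SOCS3 was lost whichever of the 8 libraries was left out. EGR1 and JUN, transcription factors of the early response, had no count on wire 2 and did not pass. Of 14 heat shock genes 1 was higher, DNAJA1, a co-chaperone (3.67, SE 0.76, adjusted p = 0.0244), a call lost without any aorta library. Of 14 hypoxia genes 2 were higher. LDHA, lactate dehydrogenase A, measured 214, 109.2, 1027 and 140 CPM against 5.58 to 16.1 CPM (5.09, SE 0.85, adjusted p = 0.0095), and EGLN3, an oxygen-sensing hydroxylase, was 3.14 (SE 0.55, adjusted p = 0.0111). Both calls were lost without aorta 1 or aorta 2. Of 10 glucocorticoid-responsive genes 2 were lower, the transcription factors ZBTB16, with 66.6, 51.2, 8.88 and 27.8 CPM against 368 to 623 CPM (-3.69, SE 0.65, adjusted p = 0.0118), and CEBPD (-3.00, SE 0.56, adjusted p = 0.0153). ZBTB16 was not called without aorta 2, nor CEBPD without aorta 1, 2 or 4. The list medians were 0.27, 0.04, -0.08 and -2.48 in this order, and the first 3 of them changed sign in 2, 13 and 8 of 23 alternative settings.

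Genes of the organs the arteries supply did not pass over the 4 wires. Counts over the 4 wires in this paragraph are read against 2.8% of all genes higher and 0.764% lower. None of 9 tested hepatocyte genes and none of 9 kidney tubule and podocyte genes passed in either direction, with medians of -0.64 and -0.27. At an unadjusted p under 0.05 in edgeR 1 hepatocyte gene, ARG1, was higher and no kidney gene differed. DESeq2 called 1 hepatocyte gene and no kidney gene, and voom none. The hepatocyte genes summed to 231, 210, 125 and 193 CPM on the wires and 148 to 222 CPM in aorta, and the kidney genes to 204, 159, 0 and 148 CPM against 130 to 198 CPM. Neither sum separated the liver wires 1 and 3 from the kidney wires 2 and 4. Wire 3 had no count in 8 of the 9 hepatocyte genes, its sum being that of ARG1, and none in all 9 kidney genes. With pig 248K alone 5 of 10 hepatocyte and 4 of 9 kidney genes were lower, against 32.6% of all genes, and 1 hepatocyte gene was higher. With pig 243K alone none of either list passed in edgeR, while at an unadjusted p under 0.05 there 1 kidney gene was higher. Adipocyte genes had 1 of 9 lower, the lipid droplet protein PLIN4 (-3.13, SE 0.55, adjusted p = 0.0116), and nerve genes 1 of 7 higher, MBP, myelin basic protein (2.26, SE 0.52, adjusted p = 0.0364). None of 11 proliferation genes passed, nor did any at an unadjusted p under 0.05 in edgeR or by DESeq2's or voom's adjusted test. PLIN4 was not called without aorta 1 or 4, nor MBP without wire 1 or any aorta library. The HOX genes, which keep a record of position along the body axis, had none of 23 called and a median of -0.93. Wires 1 to 4 had no count in 5, 15, 22 and 1 of the 23. Wires 2 and 3 also held the fewest genes at equal depth, 9394 and 8891. The part of that in the missing HOX, hepatocyte and kidney counts was not tested. With pig 248K alone 18 of 25 HOX genes were lower (median -7.05, background 32.6%), and with pig 243K alone 2 of 24 (median -0.42, background 3.36%). Between the wires of the pigs 11 of 25 were lower in pig 248K, against 21.9% of all genes. Over the 4 wires against aorta, 2 of the 23 were lower at an unadjusted p under 0.05 in edgeR. DESeq2 and voom each called 2 lower in that comparison. HOXA10 had no count on any wire and 63 counts over the aorta libraries, at least 21.5-fold lower at a floor of 3 counts over the group (adjusted p = 0.0536). Of 48 ribosomal protein genes 1 was higher, RPS24 (2.56, SE 0.61, adjusted p = 0.0425), a call lost without any aorta library, wire 1 or wire 2.

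The 13 mitochondrially encoded genes took 3.56%, 1.99%, 0.272% and 4.33% of the counts of wires 1 to 4 and 7.14%, 7.83%, 5.66% and 4.44% in aorta 1 to 4. Wire 3 was lowest, and wire 4 came close to aorta 4. The difference in means was -3.73 percentage points (exact two-sided permutation test, p = 0.0286, the smallest possible). The p was 0.0571 without wire 1, 2 or 3 and without aorta 1, 2 or 3. The totals include 2 identifiers without a name, which took 26.6% to 49.2% of wire counts and 5.34% to 8.34% of aorta counts. Shares with these left out of the total were not computed. The 2 identifiers themselves took 29.0 percentage points more on the wires, the opposite direction. What they encode is not given in the sources used here. No single mitochondrial gene passed in the test across genes, with a median of -0.66, and none had an unadjusted p under 0.05 in edgeR. DESeq2 and voom also called none of them.

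Outside the lists, the largest differences among genes with a symbol included further genes with a role in adhesion and the cytoskeleton. PARVB, the integrin-linked adaptor beta-parvin, measured 179, 148, 609 and 94.3 CPM on the wires and 0.931, 0.210, 0 and 0.402 CPM in aorta (9.21, SE 0.996, adjusted p = 0.0052). AVIL, the actin-severing protein advillin, measured 395, 420, 2428 and 388 CPM against 4.34 to 7.36 CPM (7.23, SE 0.89, adjusted p = 0.0052). Neither gene overlapped between groups, and wire 3 was highest in both. SH3BGRL2 was 7.34 (SE 0.95), DRC1, a protein of motile cilia, 8.57 (SE 1.16), and ICAM3, a leukocyte adhesion molecule, 7.65 (SE 1.05), each with an adjusted p of 0.0052. Among the genes lower on the wires, JMJD8, GRB14, TCEA3 and CA4 had no count on any wire. At a floor of 3 counts over the group they were at least 73.8-, 66.0-, 64.5- and 53.2-fold lower. The adjusted p was 0.0239 for JMJD8, 0.0315 for GRB14, 0.0320 for TCEA3 and 0.0340 for CA4.

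WFDC1, a secreted protease-inhibitor-like protein, had 1 count over the wires and 264 over aorta, a ratio of 288 with a counting interval of 51.6 to 11356. PDGFRB, the growth factor receptor of pericytes and smooth muscle, measured 0.495, 0, 0 and 4.96 CPM on the wires and 87.2, 76.5, 103.6 and 148 CPM in aorta (-6.38, SE 1.199, adjusted p = 0.0157). ITGA7, a laminin receptor of muscle, measured 1.49, 3.87, 0 and 0.496 CPM against 89.6 to 219 CPM (-6.61, SE 0.98, adjusted p = 0.0068). Both groups were apart for each of these genes. The calls of JMJD8, GRB14, TCEA3, CA4, WFDC1 and PDGFRB were lost without any aorta library, and those of GRB14, TCEA3, CA4, WFDC1 and PDGFRB without wire 1. ITGA7 kept its call without each library.

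The brush and blood libraries give a scale for these levels, with no test, after scaling over 20 libraries (blood 2, with 5633 counts, left out). TUBB1 had medians of 1404 CPM on the wires, 25.2 in aorta, 263 in 10 brush libraries and 168 in 2 blood libraries. The platelet granule genes summed to medians of 5425, 400, 1577 and 1249 CPM in the same order. HBB had medians of 11044, 14.9, 767 and 38987 CPM. PTPRC had medians of 490, 51.7, 262 and 3051 CPM. MYH11 had medians of 186, 21464, 9177 and 8.08 CPM, and COL1A1 of 35.6, 1449, 1792 and 7.81 CPM. The median of the wires lay above that of blood in TUBB1, below it in HBB and PTPRC, and between blood and aorta in MYH11 and COL1A1.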

How the data were processed

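Per the labels' protocols, total RNA came from the RNAdvance Tissue kit, used with smaller reagent volumes, and SMARTer Pico gave the libraries. Salmon and DESeq2 were used on the build Sscrofa11.1, per the submitters' processing notes. Versions, annotation release, counting strand and the treatment of shared reads are not given in the sources used here, so overlapping and antisense genes could not be separated. The authors deposited estimated counts per Ensembl gene for 21 libraries, without scaling between libraries. Of its 24358 genes, 14692 could be given a symbol from the name list supplied. Values that were not whole made up 11.86% of the table, and all counts were rounded to whole numbers.

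The 8 libraries were analysed in R 4.3.3 with edgeR 4.0.16. Genes passed filterByExpr with its minimum count set to 10. After TMM scaling, a robust quasi-likelihood fit was tested with Benjamini-Hochberg adjustment over all genes. The SE is the fold change divided by the root of the F statistic. The wires of the pigs were compared in a fit with 3 groups. Whole libraries were compared by exact permutation over all 70 splits. Genes at equal depth are the number expected when 1000000 counts are drawn without replacement, from the hypergeometric distribution. Shares of counts carry Wilson 95% intervals, and a count of 0 was set to a floor of 3 counts. DESeq2 1.42.0, limma 3.58.1 and other settings served as alternatives, with unscaled CPM and, between the pigs, the organ of the artery as a block added after the data were seen. Each replicate pair differed by more than sampling noise, but libraries of 1 pig may be technical repeats, so p-values measure the spread between these libraries. The code was tested on simulated data.

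Named genes were the 5 markers, 5 label checks, the 10 largest called changes in each direction with a symbol and a mean of 10 CPM or more in the higher group, the 4 measured members of lowest p in each list (2 where none was called), and for the wires of the pigs 4 in each direction. Members named beyond that rule, such as MYL9, CALD1, ELN and FN1, were chosen after their values were seen. The comparison, the markers and the 28 lists (591 members) were chosen with earlier results of these data known. Positions were matched by symbol to the RefSeq table of Sscrofa11.1 for 76 of 78 named genes.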

Additional observations from a re-analysis of the deposited data

Results flagged for a closer look

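Among 64 groups of 4 libraries examined, 14 had 1 library far from the other 3. The groups share the same libraries and are not independent, so no rate by chance can be set beside this number. In genes with a count on 1 wire only, such as WFDC1, ZNF503 and B4GALNT3, the flag follows from that alone. Wire 3 was far above the other wires in 8 genes after scaling. It measured 7764 CPM of TUBB1, 12331 CPM of F13A1, 2428 CPM of AVIL, 2139 CPM of SH3BGRL2, 609 CPM of PARVB, 356 CPM of DRC1, 795 CPM of KDR and 1355 CPM of PTPRC. Wire 3 had the lowest scaling factor, and its part in these levels was measured by leaving out the scaling. Wire 3 was then still the highest wire in each of these genes, by differing margins. Unscaled, TUBB1 measured 1075, 1414, 2987 and 1139 CPM on wires 1 to 4, and PTPRC 359, 437, 521 and 452 CPM. Of the 40 named genes called higher on the wires, wire 3 was the highest wire in 36 after scaling and in 24 without it. Whether its wire levels overlapped those of aorta was the same for 74 of 78 named genes with and without scaling.

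In genes close to 0 on the wires, 1 library held most of the counts. Wire 4 stood apart with 0.496 CPM of WFDC1, 1.49 CPM of ZNF503 and 4.96 CPM of PDGFRB, and wire 1 with 0.743 CPM of B4GALNT3. ZNF503 had 3 counts over the wires, a ratio to aorta of 200.2 with a counting interval of 68.5 to 970.7, and B4GALNT3 also had 3, a ratio of 149 with an interval of 51.1 to 724. Aorta 4 stood apart with 3986 CPM of ACTA2 and with 18594 genes at equal depth, the fewest of the aorta libraries.

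Of the named and label-check genes, 3 were flagged because the wires of the pigs differed in the edgeR fit. EPB41, COL5A1, ARG1 and LRP2 also differed there (adjusted p = 0.0319, 0.0127, 0.0079 and 0.0059) but were not flagged. ALAS2 was higher in pig 248K than in pig 243K by 2.53 on the log2 scale (adjusted p = 0.0359, both wires of 1 pig above both of the other). PDGFRB differed by -6.03 (adjusted p = 0.0361) and CDH5 by -4.73 (adjusted p = 0.0224). The pigs also differed in genes at equal depth, and the part of that in these differences was not tested.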

How the results depend on the processing

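The direction of called genes was kept, while their number varied. No gene called in the comparison had the opposite sign in a call of any of the 23 alternative settings, and 19 of 28 lists kept the sign of their median in all of them. The higher and lower genes were 0.803% and 0.124% of genes tested (123 and 19) at an adjusted p under 0.01, 0.647% and 0.318% with all 21 libraries, 1.40% and 0.327% (215 and 50) with a 2-fold minimum, 5.11% and 3.36% with pig 243K alone, 6.99% and 32.6% with pig 248K alone, 4.36% and 10.4% (735 and 1756) with the liver wires alone and 0.0107% and 0.032% (2 and 6) with counts summed per pig. DESeq2 called 3.28% lower (502), limma's voom 1.71% (262) and the counts thinned to the shallowest library 1.40% (196). With 1 library left out the higher genes ranged from 0.27% to 3.13% (42 to 496) and the lower from 0.129% to 6.43% (20 to 1019). Of 63 named calls, 40 were lost without aorta 2, 37 without aorta 1 and 62 with counts summed per pig, and none with either pig's wires alone. The fits with either pig's wires alone reuse libraries that gave the calls, so they are not a separate test. Between the pigs' wires, genes higher and lower in pig 248K were 0.0236% and 11.5% (4 and 1940) at an adjusted p under 0.01, 0.181% and 5.95% (33 and 1084) with all 21 libraries and 0% and 0.0177% (0 and 3) with voom. The organ of the artery as a block, added after the data were seen, gave 1.58% higher (267) and 27.9% lower (4718). The higher ones were 0.307% (66) with no filter and 3.65% (618) with DESeq2, and the lower ones 17.6% (1879) at a minimum count of 50. With 1 library left out the higher genes ranged from 0.118% to 7.81% (21 to 1399) and the lower from 17.3% to 38.2% (2881 to 6852). The difference in genes at equal depth ranged from -7764.67 to -4846.93 and that in the mitochondrial share from -4.34 to -2.98 percentage points with 1 library left out. The 2 unnamed identifiers, set in place of the mitochondrial genes, took 29.0 percentage points more on the wires. This is the opposite direction to that of the mitochondrial genes. What these identifiers encode is not given in the sources used here. The causes of these changes were not tested. No paired analysis was possible because no pig gave both wire and aorta. Wires 2 and 3 were not the shallowest libraries but held the fewest genes at equal depth, and no count there does not show absence.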

Other observations

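Several genes outside the lists, chosen after their values were seen, differed in the same test. ACTB, beta-actin, measured 10200, 15478, 61000 and 9606 CPM on wires 1 to 4 and 737 to 2101 CPM in aorta (log2 fold change 4.40, SE 0.86, adjusted p = 0.0177 in edgeR). ACTG1, whose sequence is close to that of ACTB so that shared reads may be split between them, was 3.62 (SE 0.82, adjusted p = 0.0360). TPM4, a tropomyosin of platelets and other non-muscle cells, measured 6585, 4940, 40407 and 6536 CPM against 161 to 332 CPM (6.09, SE 0.95, adjusted p = 0.0076), while ACTA2 and TPM2 of smooth muscle were lower. Further genes with a known role in platelets were higher, among them GNG11 (5.22, SE 0.83, adjusted p = 0.0083), LCP2 (5.20, SE 0.69, adjusted p = 0.0052), MPIG6B (3.38, SE 0.59, adjusted p = 0.0114) and SLC6A4, the serotonin transporter (2.93, SE 0.65, adjusted p = 0.0315).

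CD74, the invariant chain of class II molecules, measured 702, 108.3, 294 and 1327 CPM against 35.8 to 107.8 CPM (3.41, SE 0.79, adjusted p = 0.0385). Wires 1 and 4 of pig 243K were the highest, and wire 2 lay at the top of the aorta range. HLA-DRA, a class II chain, was 3.49 (SE 0.59, adjusted p = 0.0098), and the peptide transporter TAP2 was 3.23 (SE 0.47, adjusted p = 0.0058). Among genes lower on the wires, IGF1R, a growth factor receptor, measured 17.1, 13.8, 19.9 and 22.8 CPM against 139 to 287 CPM (-3.41, SE 0.46, adjusted p = 0.0052). DMD, dystrophin, was -4.90 (SE 0.82), and AEBP1, a collagen-binding matrix protein, was -5.79 (SE 1.08).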
